A study of Rattus norvegicus with 4 samples.

Results

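The metallothionein genes Mt1 (older name Mt1a), Mt2A and Mt3 were examined in the hypothalamus of hypothyroid rats given triiodothyronine (T3, the active thyroid hormone). The members were all probes whose array accession matched 1 of these 3 genes in RefSeq. Each gene had 1 probe, printed in 1 spot, so the family was 3 of 41012 probes and 3 of 13440 named genes on the array. The family was chosen by earlier T3 over saline ratios of the same arrays, in which Mt2A was among the genes with the lowest values. Its ratios are therefore given as a description, with no test.

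All 8 rats were male Sprague Dawley rats, aged 7 weeks when the study began and 10 weeks at tissue collection. Every one of them had 0.025% methimazole (MMI, which blocks the making of thyroid hormone) in the drinking water for 22 days, so the saline rats were hypothyroid and no untreated group was analysed here. On day 21, 4 rats were injected with T3 (25 µg per 100 g) and 4 with saline, and tissue between bregma -2.12 and -4.52 mm was taken 24 hours later. Total RNA was hybridised to 4 two-colour Agilent arrays, each with a T3 sample in one dye and a saline sample in its counterpart. Cy5 carried the T3 sample on arrays 1 and 3 and the saline sample on arrays 2 and 4. Each channel was taken as 1 rat, as the labels list 8 rats and 4 replicates of a treatment. In a bulk tissue sample, fewer cells of a type and less RNA per cell cannot be told apart.

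Metallothioneins are small cysteine-rich proteins that bind zinc and copper. Transcription of Mt1 and Mt2A is induced by metals through the zinc-sensing factor Mtf1, which binds metal response elements, and by glucocorticoids. In rodent brain, both are found mainly in astrocytes, ependymal cells, meninges and vessels, while Mt3 is enriched in brain and made by neurons and astrocytes.

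The 3 genes lie next to each other on rat chromosome 19. Their promoters are shown because the metal response core is the feature that the family is known for, and all 3 mean ratios lay below 0. Each sequence is the 250 bases before the gene's start, 5′ to 3′ on the gene's strand, from RefSeq on build GRCr8, with capitals marking every metal response core (TGCACNC or TGCGCNC on either strand).
Mt1, chr19:10832976-10833225, minus strand: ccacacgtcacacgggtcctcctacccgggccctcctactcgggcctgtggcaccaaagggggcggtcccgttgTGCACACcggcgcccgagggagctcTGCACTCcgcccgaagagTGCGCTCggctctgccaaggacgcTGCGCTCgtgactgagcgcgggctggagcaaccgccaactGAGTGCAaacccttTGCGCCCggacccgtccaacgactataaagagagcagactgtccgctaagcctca
Mt2A, chr19:10838709-10838958, minus strand: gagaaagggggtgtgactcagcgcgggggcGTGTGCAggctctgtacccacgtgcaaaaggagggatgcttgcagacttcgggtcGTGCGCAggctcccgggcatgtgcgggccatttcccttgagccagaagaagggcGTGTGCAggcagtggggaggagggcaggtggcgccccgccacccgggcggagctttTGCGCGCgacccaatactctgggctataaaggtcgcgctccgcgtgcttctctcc
Mt3, chr19:10856081-10856330, minus strand: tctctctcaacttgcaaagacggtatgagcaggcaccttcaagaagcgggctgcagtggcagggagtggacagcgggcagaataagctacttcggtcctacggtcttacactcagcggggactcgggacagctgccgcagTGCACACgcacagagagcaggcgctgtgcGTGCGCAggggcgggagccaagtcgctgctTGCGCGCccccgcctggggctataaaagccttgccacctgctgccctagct

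The Mt1 window held 6 cores, 5 of them on the gene's strand, between 176 and 49 bases before the start. The Mt2A window held 4, with 1 on the gene's strand, between 220 and 49 bases before it. The Mt3 window held 3, all within 110 bases of the start. No core overlapped another. Of 33469 RefSeq promoter windows of the same length, 20.6% held at least 1 core. At least as many cores as in Mt1, Mt2A and Mt3 were found in 0.0269%, 0.266% and 1.17% of them. The bases G and C made up 66.4%, 66.0% and 62.8% of the Mt1, Mt2A and Mt3 windows. The windows compared were not matched for this content. The hexamer AGGTCA, the core of thyroid hormone response elements, was in none of the 3 windows on either strand and in 14.1% of all windows, and it was the only other motif searched.

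After loess normalization, the Mt2A transcript was lower in the T3 channel on every array, by a similar amount each time. The Mt3 transcript was lower on every array by a smaller amount, and Mt1 was clearly lower on 1 array alone. On average the Mt2A ratio was -0.50 ± 0.06 on the log2 scale (SD, n = 4 arrays), which is a level 29.2% lower after T3 and a saline level 1.41 times the T3 level. The mean log2 ratio was -0.19 ± 0.05 for Mt3, or 12.6% lower, and -0.15 ± 0.22 for Mt1, or 10.1% lower. The SD of Mt1 was larger than its mean, whereas those of Mt2A and Mt3 were well under theirs.

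**Figure D1:**
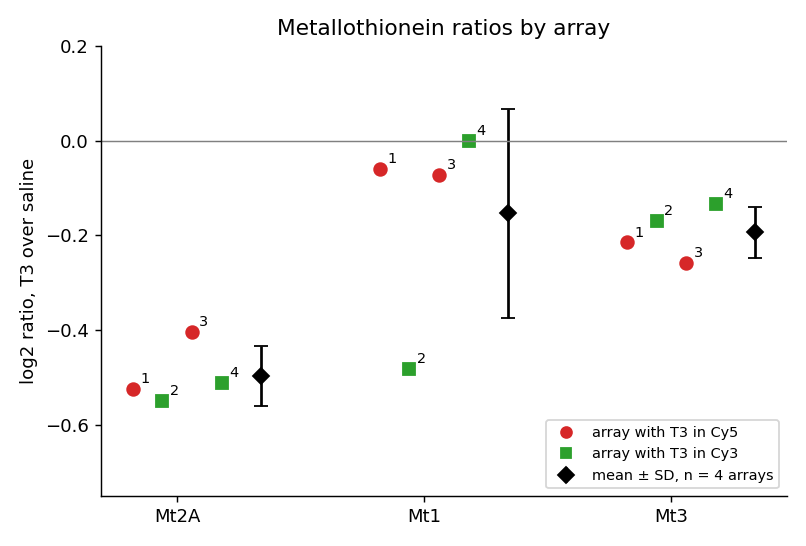
Log2 ratio of T3 over saline (y axis) for each gene on arrays 1 to 4 (numbered points, red circles with T3 in Cy5 and green squares with T3 in Cy3), with the mean and SD over 4 arrays in black. Mt2A lies between -0.55 and -0.40, Mt3 between -0.26 and -0.13, and Mt1 is near 0 except on array 2.

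Mt2A, the second general metallothionein of rodents, had unprocessed Cy5 spot signals of 1471 and 1434 in the T3 rats of arrays 1 and 3, against 2043 and 2061 in the saline rats of arrays 2 and 4. Its Cy3 signals were 565 and 537 in the T3 rats of arrays 2 and 4 and 1012 and 680 in the saline rats of arrays 1 and 3. Within each dye, both T3 rats were therefore dimmer than both saline rats before any normalization. These signals come from different arrays, which were not equally bright. The median Cy3 signal was 127 and 110 on arrays 2 and 4 and 138.5 and 125.5 on arrays 1 and 3. In Cy5 it was 260 and 281 on arrays 1 and 3 and 268.5 and 238 on arrays 2 and 4. After background correction and loess normalization, the log2 ratios of Mt2A were -0.52, -0.55, -0.40 and -0.51 on arrays 1 to 4. The T3 level ran from 24.4% lower on array 3 to 31.7% lower on array 2.

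The normalized Mt2A levels, as log2 intensity, were 9.77, 9.71, 9.79 and 9.97 in the T3 rats of arrays 1 to 4. In the saline rats they were 10.29, 10.25, 10.19 and 10.48. All 4 T3 rats lay below all 4 saline rats, with the highest T3 rat and the highest saline rat on the same array, array 4. Levels that separated the rats in this direction were found for 139 of 22654 probes with a value on every array, or 0.614%. Within an array the T3 and saline levels differ by the log2 ratio, and the family was chosen by such ratios. The separation and its share are therefore a description, with no test. The rats' levels within a treatment had an SD of 0.11 (T3) and 0.12 (saline).

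Mt1, the other general metallothionein and the neighbour of Mt2A on the chromosome, had log2 ratios of -0.06, -0.48, -0.07 and -0.00013 on arrays 1 to 4. Array 2 thus held most of the difference, and without it the mean was -0.04. Normalized levels were 10.30, 10.50, 10.31 and 10.40 in the T3 rats and 10.36, 10.98, 10.38 and 10.40 in the saline rats. The saline rat of array 2 was high, and the other 7 rats lay between 10.30 and 10.50, with T3 and saline overlapping. The unprocessed Cy5 signal of that rat was 3409, against 1968.5 in the other saline rat measured in Cy5 and 2099 and 2061 in the T3 rats measured in Cy5. In Cy3, the signals were 1037 and 766 in the saline rats and 963.5 and 723 in the T3 rats, which also overlapped.

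Mt3, the brain-enriched member first described as a growth inhibitory factor for neurons, had log2 ratios of -0.22, -0.17, -0.26 and -0.13 on arrays 1 to 4. Its normalized levels were 15.17, 15.06, 15.24 and 15.41 in the T3 rats and 15.39, 15.23, 15.50 and 15.55 in the saline rats. The groups overlapped, because the pair of rats on array 2 was low and the pair on array 4 was high for both treatments, but the T3 rat of each pair was the lower one. In the unprocessed Cy5 signal the T3 rats stood at 63443 and 67085 and the saline rats at 71087 and 80851. In Cy3 they stood at 20832 and 21771 for T3 and 29554 and 22956 for saline. Within each dye the T3 rats were again dimmer than the saline rats, with no scaling for the brightness of the arrays.

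**Figure D2:**
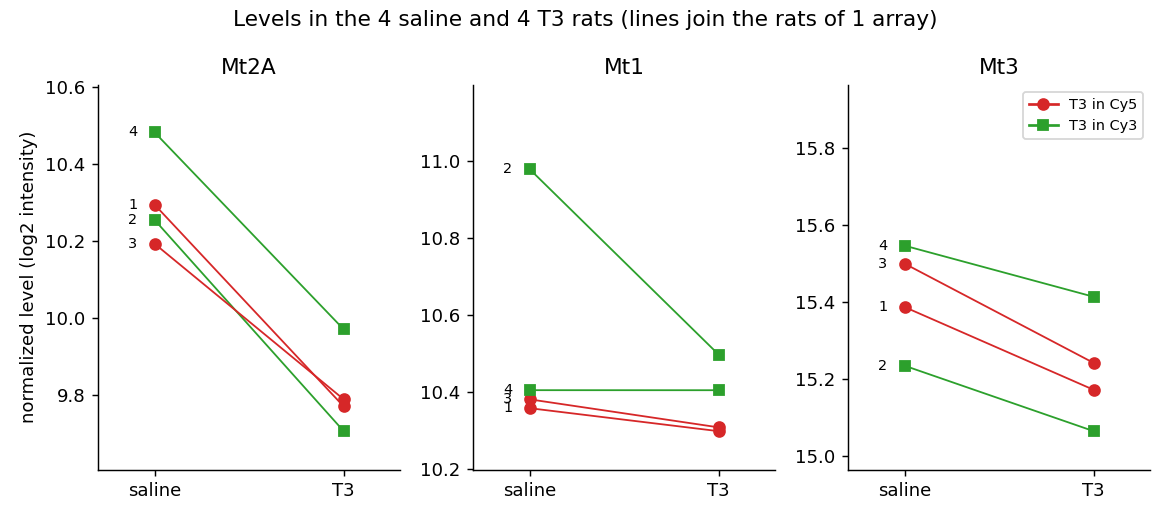
Normalized level (log2 intensity, y axis, each panel spanning the same range of log2 units) of the saline and T3 rats, with a line joining the 2 rats of an array (numbers at the left). The 4 T3 rats lie below the 4 saline rats for Mt2A, the groups overlap for Mt1 and Mt3, and the saline rat of array 2 stands alone for Mt1.

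All 3 spots were well above background in both channels of all 4 arrays, and none was saturated or marked as an outlier. The signal was 10.4 to 20.6 times the local background for Mt2A, 13.6 to 33.9 times for Mt1 and 379 to 801 times for Mt3. The members' values therefore did not depend on the filter on dim probes. The probe sequences were not used here, and whether a probe also bound the transcript of another family member was not tested. On array 2 the Mt1 and Mt2A ratios lay close together, with a difference of 0.07, and on arrays 1, 3 and 4 the Mt1 ratio was higher by 0.46, 0.33 and 0.51. The Mt2A ratio was lower than that of Mt3 on all 4 arrays, by a mean of 0.30 on the log2 scale (SD 0.11).

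Across the array, the limma fit called 23 of 23210 tested probes at an adjusted p under 0.05, or 0.0991% of them, with 22 higher (0.0948%) and 1 lower (0.00431%) after T3. None of the 3 metallothionein probes was among them. As the family was chosen with this contrast known, nothing is read from that count. Mean ratios at or below that of Mt2A were found for 81 tested probes (0.349%). For Mt3 and Mt1 they were found for 1300 (5.60%) and 2121 (9.14%). An SD over the arrays as small as that of Mt2A was found for 6.98% of probes, and one as small as that of Mt3 for 4.64%, whereas 71.6% had an SD at or below that of Mt1. All 3 members had ratios below 0 on all 4 arrays, although that of Mt1 on array 4 was only -0.00013, as did 8.06% of probes.

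**Figure D3:**
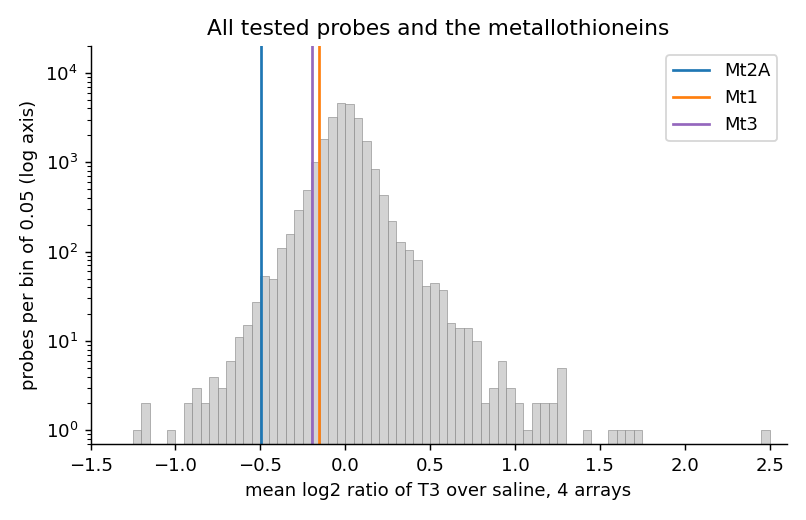
Number of tested probes (y axis, log scale) by mean log2 ratio of T3 over saline over 4 arrays (x axis, bins of 0.05), with vertical lines at the 3 metallothioneins. Mt2A at -0.50 lies in the lower tail, with 81 of 23210 probes at or below it, and Mt3 and Mt1 lie on the shoulder.

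The dye orientations gave similar mean ratios for Mt2A. It was at -0.46 on average with T3 in Cy5 and -0.53 with T3 in Cy3. Mt3 was at -0.24 and -0.15, and Mt1 at -0.07 and -0.24, the latter mean including array 2. A dye coefficient, the part of the Cy5 over Cy3 ratio that did not turn with the treatment, was not used to choose the family and was tested in a limma fit with a dye term. It was 0.03 (SE 0.06) for Mt2A, with a limma adjusted p of 0.80. For Mt3 it was -0.04 (SE 0.06) with a limma adjusted p of 0.72, and for Mt1 it was 0.09 (SE 0.09) with a limma adjusted p of 0.65. Limma called 0 of 23203 probes for a dye effect after adjustment, with 3940 at an unadjusted p under 0.05, so that small dye effects of these probes were not resolved. In the same limma fit 2908 probes were at an unadjusted p under 0.05 for T3. The count of 0 therefore does not mean that no dye effect was left across the array.

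Under other ways of processing, the 3 mean ratios stayed below 0. Without background subtraction the Mt2A mean was -0.49, and with Agilent's processed signals it was -0.54, lower on 4 of 4 arrays in both. Mt3 was at -0.19 in both, also lower on 4 of 4 arrays. The SD of Mt2A was 0.06 without background subtraction and 0.14 with Agilent's processed signals. That of Mt3 was 0.05 and 0.13 in the same order. Mt1 was below 0 on 3 of 4 arrays without background subtraction and on 2 of 4 with Agilent's processed signals. Median centring in place of loess left the mean of Mt2A at -0.54, but its values were -0.17 and 0.14 with T3 in Cy5 and -1.01 and -1.12 with T3 in Cy3. Those of Mt3 were 0.42 and 0.66 with T3 in Cy5 and -0.96 and -1.09 with T3 in Cy3. For Mt1 they were 0.31 and 0.50 with T3 in Cy5 and -0.99 and -0.62 with T3 in Cy3. The dye coefficients under that setting were 0.53 for Mt2A, 0.61 for Mt1 and 0.78 for Mt3 (limma adjusted p = 0.00122, 7.45e-04 and 2.65e-04). The agreement of the 4 arrays thus rests on a correction for the dye, in which each array's ratios are levelled along brightness.

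In the authors' deposited table, the Mt2A log2 ratios were -0.72, -0.89, -0.52 and -0.28 on arrays 1 to 4. Those of Mt1 in the authors' deposited table were 0.01, -0.70, -0.12 and 0.04, again low on array 2. Those of Mt3 in the authors' deposited table were -0.42, -0.21, 0.35 and -0.70, so that array 3 had the opposite sign. Over 22654 probes, which are not independent replicates, the authors' deposited table correlated with the ratios of the scanner files at a Pearson r of 0.43, 0.42, 0.19 and 0.28 for arrays 1 to 4, and its columns for arrays 3 and 4 correlated with each other at -0.51. The steps behind these values are not given in the sources used here, and their scale and direction were taken as log2 of T3 over saline.

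**Figure D4:**
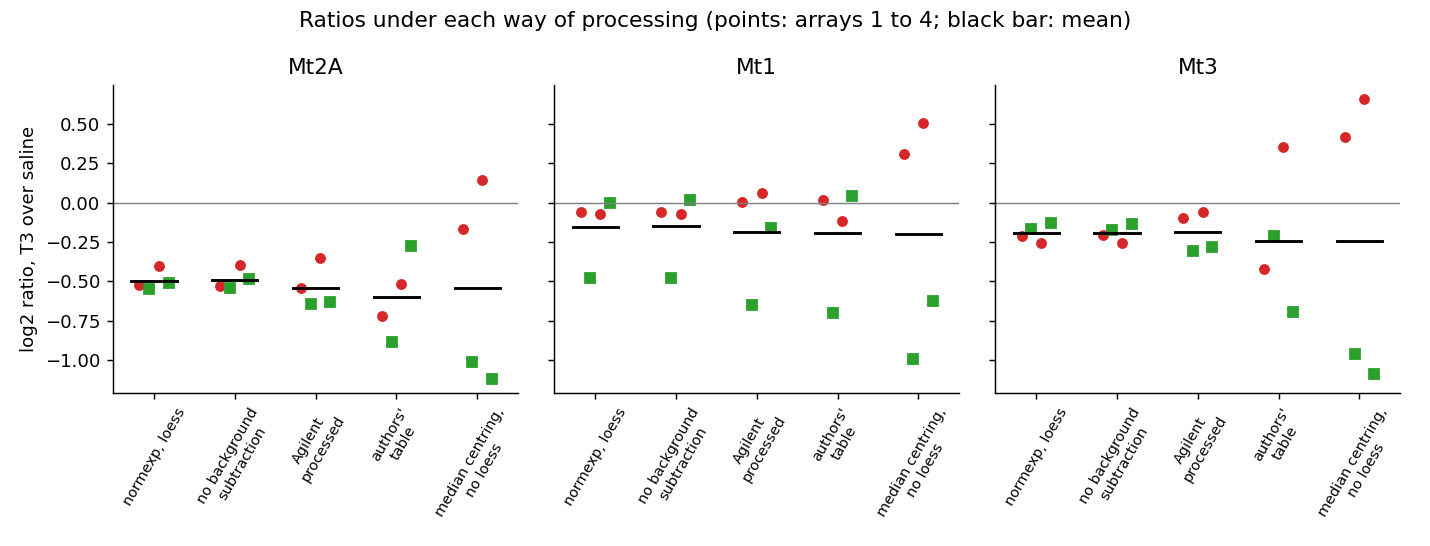
Log2 ratio of T3 over saline (y axis) on arrays 1 to 4 (red circles with T3 in Cy5, green squares with T3 in Cy3) and their mean (black bar) under 5 ways of processing (x axis), 1 panel per gene. Mt2A is below 0 on every array in 4 of them, and median centring without loess spreads the arrays by dye.

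The genes closest to each member over the 4 arrays were found among 9062 other named genes, by the root mean square (RMS) difference of the log2 ratios. For Mt2A they were Mcam, an adhesion molecule of vessel walls (mean -0.42 ± 0.06, RMS difference 0.088), Rgcc, a cell cycle regulator also made by endothelium (-0.42 ± 0.06, 0.099), and Fscn2, an actin-bundling protein (-0.42 ± 0.12, 0.102). Only 2 genes came within 0.1 of Mt2A, against 41 for Mt1 and 166 for Mt3, whose ratios were nearer to those of most genes. For Mt1 the closest were Anxa7, Bace2 and Eml2, at -0.53, -0.41 and -0.51 on array 2. That each was lowest on array 2 follows from choosing them by likeness to Mt1. For Mt3 they were Rph3al, Kdm5b and Cryab, a small heat shock protein, with means of -0.20, -0.17 and -0.17. Limma adjusted p for these 9 genes lay between 0.0972 and 0.775.

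Genes that handle metals did not pass the test as single genes. Of 14 measured zinc transporters, 5 had a higher and 9 a lower mean, 0 were called by limma (1 at an unadjusted p under 0.05), and the median was -0.03, against 0.0042 over all 9320 named genes tested. The zinc importer Slc39a4 had the smallest p, at 0.58 ± 0.29 (limma adjusted p = 0.15) with log2 ratios of 0.66, 0.79, 0.16 and 0.72. Slc30a1, the zinc exporter that is a target of Mtf1 along with the metallothioneins, was at -0.0088 ± 0.13 and Mtf1 itself at 0.0014 ± 0.067. Of 12 genes of metal sensing and copper handling, 6 were higher and 6 lower with 0 called by limma (1 at an unadjusted p under 0.05) and a median of -0.0041. The copper pump Atp7a was at -0.40 ± 0.43 (limma adjusted p = 0.55). Of 10 iron genes 5 were higher and 5 lower, with 0 called (limma, 1 at an unadjusted p under 0.05), and transferrin, Tf, was at -0.38 ± 0.31 (limma adjusted p = 0.43).

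The glucocorticoid-responsive genes, a group to which Mt1 and Mt2A also belong, gave 4 higher and 7 lower means of 11 measured, 0 called by limma (2 at an unadjusted p under 0.05) and a median of -0.04. Fkbp5 and Tsc22d3, classic targets of the glucocorticoid receptor, were at 0.02 ± 0.05 and -0.0056 ± 0.024. Sgk1, a kinase that is another such target, was at -0.27 ± 0.27 (limma adjusted p = 0.58) and below 0 on all 4 arrays. Errfi1, a feedback inhibitor of growth factor receptors, had the smallest p, at 0.19 ± 0.03 (limma adjusted p = 0.51). Of 17 antioxidant genes 10 were higher and 7 lower, with 0 called by limma (1 at an unadjusted p under 0.05) and a median of 0.0090. Prdx6, a peroxiredoxin, was at 0.18 ± 0.11 (limma adjusted p = 0.58), and Hmox1, which like Mt1 and Mt2A responds to metals and oxidants, at 0.02 ± 0.06. The background for these counts over genes is 15 of 9320 named genes called, or 0.161%.

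In the same rats the nuclear corepressor Hr, a direct target of thyroid hormone, was at 1.18 ± 0.15 (limma adjusted p = 0.0130). Cbs, which makes cystathionine on the way to cysteine, was the lower gene that passed, at -0.62 ± 0.10 (limma adjusted p = 0.0426). The 5 others on the list of 7 thyroid hormone responsive genes were higher without passing. As this list was drawn up with earlier results of these data known, nothing is read from its calls. Limma called 0 genes of the 6 related lists with Agilent's processed signals, median centring or trended and robust eBayes, or without array 1, 3 or 4, so neither call held there. Across the arrays, the share of spots well above background was 51.0% to 68.3% in T3 channels and 52.4% to 63.6% in saline channels.

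Astrocytes are a main source of Mt1 and Mt2A, and their markers were compared array by array. Of 13 measured astrocyte markers 9 had a lower mean, 0 were called by limma (5 at an unadjusted p under 0.05) and the median was -0.15. By array, the median marker ratio was -0.02, -0.34, -0.21 and 0.09. On the same arrays Mt2A was at -0.52, -0.55, -0.40 and -0.51. Gja1, the astrocyte connexin, was at -0.62 ± 0.23 (limma adjusted p = 0.0937), with -0.73, -0.61, -0.85 and -0.30 on arrays 1 to 4. Aldoc, an astrocyte aldolase, was at -0.26 ± 0.03 and also below 0 on all 4 arrays. In the other direction, Fgfr3, a growth factor receptor of astrocytes, was at 0.34 ± 0.20 and above 0 on all 4 arrays, and the glutamate transporter Slc1a2 was at 0.34 ± 0.26 and above 0 on 3 of 4. Gfap was at 1.25 on array 4 and at -0.34 to -0.87 on the others. The mean log2 level over the 13 markers ran from 12.58 to 12.84 in the T3 rats and from 12.68 to 12.89 in the saline rats. The part of astrocyte RNA in the Mt2A ratio was not tested.

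Endothelial and mural markers had a median of 0.05 over 8 measured genes, with 5 higher and 3 lower and 0 called by limma (2 at an unadjusted p under 0.05). Cldn5, the tight junction protein of brain vessels, was at -0.37 ± 0.07 (limma adjusted p = 0.15), lower on 4 of 4 arrays, and Tie1, an endothelial receptor, was at 0.34 ± 0.15, higher on 4 of 4. The mean log2 level of the list was 9.29 to 9.48 in the T3 rats and 9.31 to 9.38 in the saline rats. Of 9 ependymal and tanycyte markers 5 were higher and 4 lower with a median of 0.06, and Adm was at 0.53 ± 0.37 (limma adjusted p = 0.28). The cilium genes Tekt1, Tekt4 and Spef2 of ependymal cells were at -0.29, -0.28 and -0.21, and the intermediate filament gene Vim at -0.33. Besides Adm, the higher markers were Nes at 0.37, Crym at 0.23, Foxj1 at 0.14 and Col23a1 at 0.06. Neuron markers, of interest for Mt3, had a median of 0.00011 over 7 genes, and Elavl4 had the smallest p, at 0.15 ± 0.16 (limma adjusted p = 0.74). On arrays 1 to 4 the neuron median was -0.05, 0.06, 0.21 and -0.08, with Mt3 below 0 on each. Oligodendrocyte markers were lower in 7 of 9 genes with a median of -0.21, and Opalin was at -0.47 ± 0.31 (limma adjusted p = 0.28). Microglia markers had a median of -0.07 over 9 genes, and P2ry12 was at -0.14 ± 0.21 (limma adjusted p = 0.80). Limma called 0 genes in each of these 4 lists, with 6 ependymal and tanycyte, 4 oligodendrocyte, 0 neuron and 0 microglia markers at an unadjusted p under 0.05.

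The saline rat of array 2, which had the high Mt1 level, also had the highest mean level over the joint list of blood and meninges markers. The mean log2 level over the 8 measured genes was 12.38 in that rat, against 10.63 to 10.94 in the other saline rats and 10.87 to 11.47 in the T3 rats. The red blood cell genes Hbb-b1, Hbb and Alas2 were at -4.25, -3.25 and -3.20 on array 2 and above 0 on the other 3 arrays. The 5 meninges genes Dcn, Lum, Col1a1, Col1a2 and Igfbp2 lay between -0.14 and 0.25 on array 2, without such a gap between its rats. Over all arrays, 5 of the 8 markers were higher and 3 lower with a median of 0.05, and Igfbp2 was at 0.25 ± 0.42 (limma adjusted p = 0.76). The mean log2 level of 5 choroid plexus markers in that rat was 8.69, the highest of the saline rats, which lay between 7.95 and 8.69, and in the T3 rats it was 7.78 to 9.93. Of that list 3 genes had a higher and 2 a lower mean, with 0 called by limma (1 at an unadjusted p under 0.05), and Calml4 was at -0.33 ± 0.24 (limma adjusted p = 0.41). Ttr and Sostdc1, which mark choroid plexus, had means of 0.92 and 0.53, with 3.53 and 2.70 on array 3. The part of blood or choroid plexus RNA in the Mt1 value of array 2 was not tested. The Mt2A and Mt3 levels of that saline rat, 10.25 and 15.23, were not high among the saline rats.

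**Figure D5:**
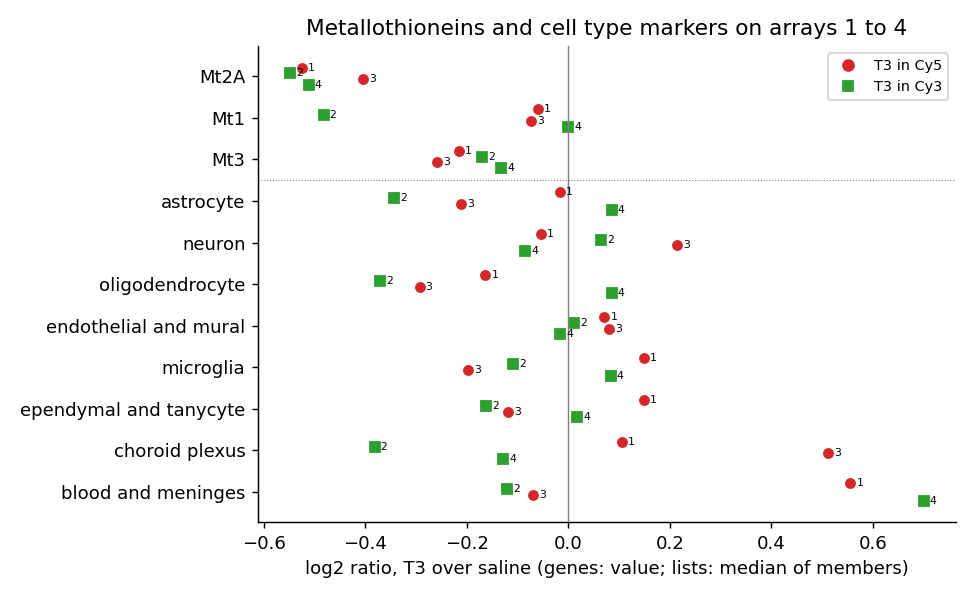
Log2 ratio of T3 over saline (x axis) on arrays 1 to 4 (numbered points, red circles with T3 in Cy5 and green squares with T3 in Cy3) for the 3 metallothioneins and, below the dotted line, the median of each list of cell type markers. Mt2A, 1 gene put forward for its low ratio, is at -0.40 or lower on every array. The list medians, over 5 to 13 genes each, lie on both sides of 0 and are not like for like with 1 gene.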

How the data were processed

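The authors' scanner files, from Agilent Feature Extraction 10.7.3.1 with an rn4 design per the file headers, gave median pixel intensity of each spot and its background without normalization. They also gave a processed intensity, corrected for background and dye by that software per the file headers, and its log10 ratio of red over green. The deposited value table was read as log2, with column medians of 0.0026, -0.0024, 0.0021 and 0.0030. The submitters' processing notes name limma 3.18.9 for it.

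Median signals were corrected with normexp (offset 50) and loess in limma 3.58.1 under R 4.3.3, with control spots at weight 0, outlier spots left out and ratios turned to T3 over saline. Levels per rat were taken after Aquantile scaling. Probes well above background on at least 3 of 4 arrays in either treatment were tested (23210 of 41012, naming 9320 genes by the brightest probe), with limma and Benjamini-Hochberg adjustment over all of them. The procedure was tested on simulated data. RefSeq (GRCr8) named 16964 probes and left 24048 unnamed.

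The members and gene lists were chosen with earlier results of these data known. Named were the members, in each list the genes past the threshold or else the one with the smallest p, and the 3 genes nearest each member. Other named list genes were chosen after their values were seen. The number of arrays limits the precision, and whether samples of a treatment were extracted separately is not given in the sources used here. Protein and probe sequences were not used here.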

Additional observations from a re-analysis of the deposited data

Results flagged for a closer look

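Of 38 genes, levels and list medians examined, 3 had a value on 1 array far from the other 3, where chance gives about 1 in 20, or 1.9. The Mt1 log2 ratio was -0.48 on array 2, and the other arrays lay between -0.07 and -0.00013 (gap over range 0.849). The Mt1 level of the saline rats was 10.98 on array 2 against 10.36 to 10.40 (gap over range 0.925). These 2 values share a rat. The Cbs log2 ratio was -0.77 on array 4 against -0.59 to -0.56 (gap over range 0.879).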

How the results depend on the processing

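The mean log2 ratios of the members stayed below 0 in every alternative run, and 1 of 27 values moved by more than the SD between arrays, that of Mt2A at -0.60 in the authors' deposited table. Without each array in turn the mean ranged from -0.53 to -0.48 for Mt2A, from -0.21 to -0.17 for Mt3 and from -0.20 to -0.04 for Mt1, the last without array 2. Outlier spots kept changed no member, and the mean over a gene's probes gave no other value because each gene has 1 probe. The dye coefficient of Mt3 turned from -0.04 to 0.11 with Agilent's processed signals (limma adjusted p = 0.35) and to 0.78 with median centring (limma adjusted p = 2.65e-04), where those of Mt1 and Mt2A passed at 0.61 and 0.53. The count of called probes, 23 in the fit described, was 0 with Agilent's processed signals, median centring and eBayes with trend and robust (1603, 131 and 1160 at an unadjusted p under 0.05, limma). It was 10 with the authors' table, 15 with a dye term, 67 with no filter on dim probes and 90 at an adjusted p under 0.1. It was 27 without background subtraction and 19 with probes well above background in both channels of all arrays. Without each array in turn it ranged from 0 to 68, with 0 without arrays 1, 3 or 4 (1404, 1383 and 1578 at an unadjusted p under 0.05) and 68 without array 2. Of the genes on the 6 related lists, 2 were called (Hr and Cbs). That count was 0 with Agilent's signals, median centring and trended eBayes. It was 1 with the authors' table and with probes well above background in both channels of all arrays. It was 3 without background subtraction and 4 with no filter. Without each array in turn it ranged from 0 to 2. The cause of these shifts in counts was not tested. The fit is itself paired by array, because each array holds a pair of rats and its ratio is the value tested.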
